A study of Mus musculus with 6 samples.

Results

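Complement is a cascade of plasma and cell surface proteins that marks microbes, immune complexes and dying cells, draws in leukocytes and opens pores in membranes. Its classical pathway starts when C1q binds a target and its C1r and C1s proteases cleave C4 and C2, its lectin pathway starts from collectins and ficolins with the MASP proteases, and both meet the alternative pathway at C3. Most plasma complement is made by the liver, while C1q is made mainly by macrophages, and fibroblasts and endothelial cells also make several components and regulators.

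The genes followed here are the 35 genes, of 46983 in the deposited table, whose symbols belong to a list of complement components, receptors and regulators. They were measured by RNA-seq in aortic valves of untreated wild type mice of the C57BL/6J strain. The ages compared were postnatal day 2 (PND2) and 4 months, with 3 libraries each. Each library was a pool of valves from 5 to 6 mice, dissected so as to leave out heart muscle as far as possible. The labels call the libraries biological replicates, so each p-value measures the spread between pools and not between single mice. Values are RPKM, reads scaled to exon length in kilobases and to the library total.

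The library totals, inferred from the exon RPKM values, lay between 23810507 and 38994657 reads. The 7 marker genes of fibroblasts and valve interstitial cells summed to between 5955 and 6395 RPKM at PND2 and to between 7652 and 9662 RPKM at 4 months, with Dcn and Lum called higher and Col1a1, Col3a1 and Postn called lower. Heart muscle markers were present at both ages, with sums of 14804 to 17299 RPKM at PND2 and of 3955 to 8567 RPKM at 4 months. The 6 adipocyte markers summed to no more than 0.377 RPKM at PND2 and to 96.4, 355 and 123 RPKM in 4 month replicates 1, 2 and 3. Hepatocyte markers summed to no more than 1.42 RPKM in any library, with Alb at no more than 0.35 RPKM and Fgb at 0 in all 3 libraries at 4 months. The 6 endothelial markers were all called lower, with sums of 321 to 444 RPKM at PND2 and of 192 to 215 RPKM at 4 months. Neutrophil markers summed to 26.3 to 32.3 RPKM at PND2 and to 0.508 to 1.33 RPKM at 4 months, mast cell markers to 119 to 172 and to 55.4 to 71.6 RPKM, and T cell markers to 0.388 to 0.443 and to 2.63 to 3.16 RPKM. In whole tissue a larger share of a cell type and more RNA per cell cannot be told apart, and the part of these cell types in the complement values was not tested.

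Complement transcripts were more abundant in the adult valve. Over the 35 genes the RPKM summed to 992, 926 and 1012 in the PND2 libraries and to 3233, 2556 and 3038 in the 4 month libraries. A gene was called where limma gave a Benjamini-Hochberg adjusted p under 0.05 over the 25903 genes tested, and 30 of the 35 genes were abundant enough to be tested, Vsig4 only through its adult libraries. Of these 30, 22 were higher at 4 months (73.3%) and 4 were lower (13.3%), against 14.7% higher and 21.1% lower among all genes tested. With a fold change over 2 as well, 17 were higher and 2 were lower, where the shares over all genes were 8.72% and 8.47%. Masp2 and Cd46 lost their calls when only exons free of other genes' exons were counted, a fit added after seeing the data, which left 21 higher and 3 lower. The per-gene unequal-variance test that the study used called 14 of the 30 genes, 13 higher and 1 lower. Among all 25903 genes tested it called 1466 higher and 1942 lower. Of the complement genes with a fold change over 2 it did not call C1qc, C2, Cfi, Clu and Vtn. The median log2 fold change was 1.12 over the 30 genes and -0.14 over all genes tested. Scaling the libraries by their medians moved the latter to -0.02, so a fold change below refers to library totals. At 4 months replicate 2 was the lowest of the 3 for 14 of the 22 genes called higher, and replicate 1 was the highest for 14. The same counts over all genes were not made. Replicate 2 had the highest adipocyte, heart muscle and red blood cell marker sums of that age. It also had the lowest sum of fibroblast and valve interstitial markers and the smallest library total.

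**Figure D1:**
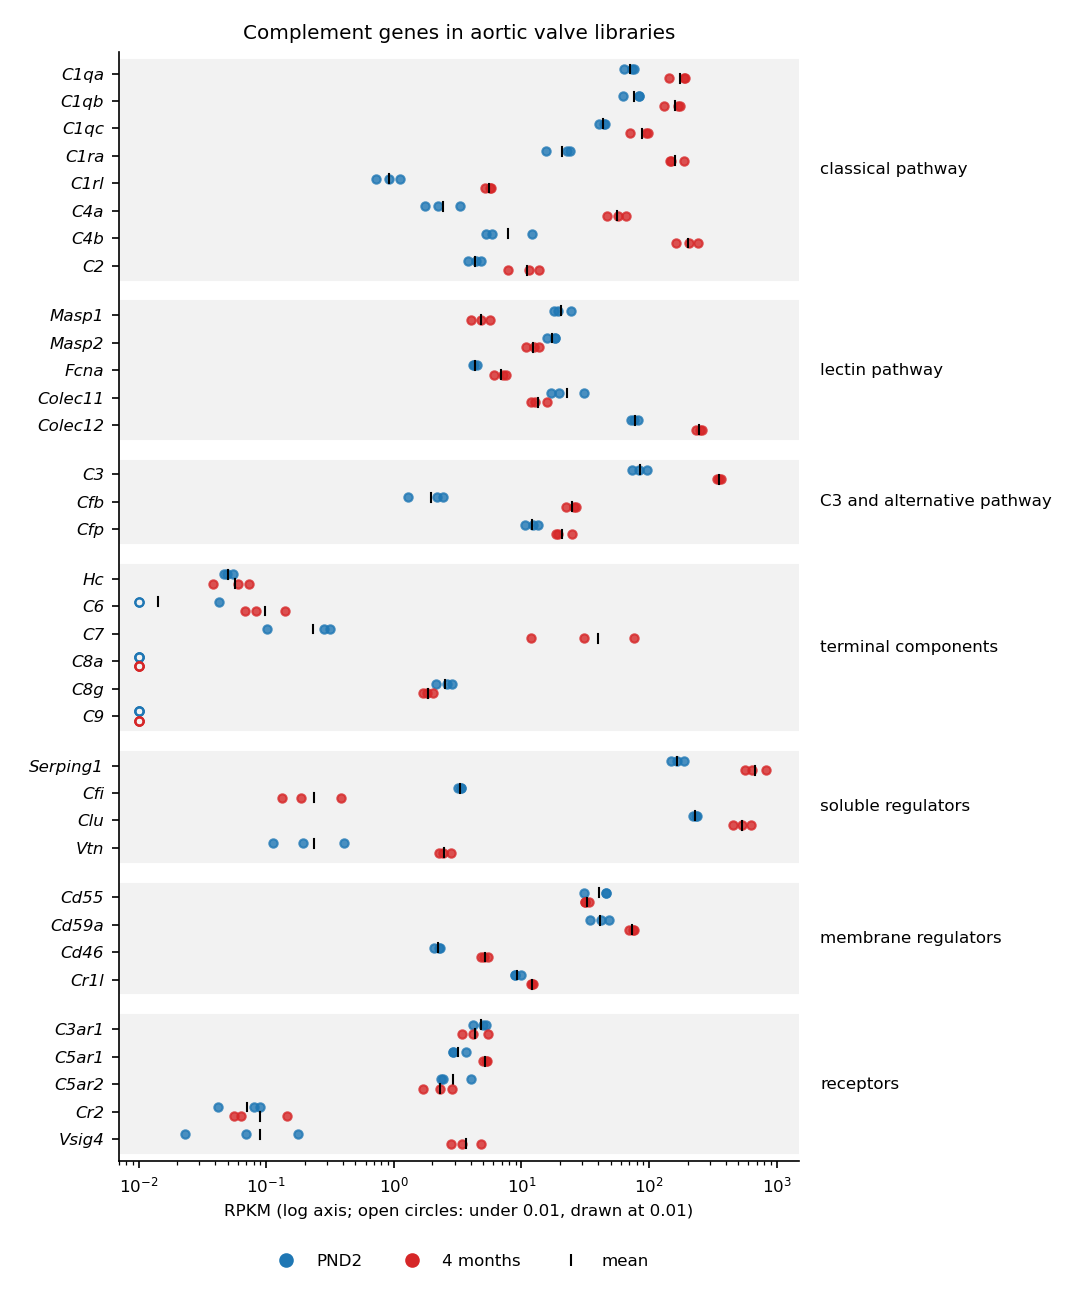
RPKM of each of the 35 complement genes in each library on a log axis, grouped by role, with PND2 libraries in blue, 4 month libraries in red and black ticks for the means. Values under 0.01 RPKM are open circles drawn at 0.01. The red points lie to the right of the blue ones for all 8 classical pathway genes, while Masp1 and Cfi are further left at 4 months.

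Clu, Serping1, C3 and Colec12 had the highest levels at both ages. At PND2 the highest means were those of Clu at 231 ± 7.24 RPKM (SD, n = 3), Serping1 at 167 ± 19.9, C3 at 84.2 ± 11.2 and Colec12 at 76.9 ± 4.53. C1qb at 76.6 ± 12.0 RPKM and C1qa at 71.3 ± 6.57 RPKM did not differ from Colec12 beyond their spread. At 4 months Serping1 led with 679 ± 135 RPKM, and Clu followed with 537 ± 84.7. Serping1 was above Clu in each of these libraries, most narrowly in replicate 3 (644 against 625 RPKM), though their ranges across libraries overlapped. C3 remained the third with 355 ± 13.9 RPKM and Colec12 the fourth with 248 ± 14 RPKM. C4b moved from place 16 at PND2 to place 5 at 4 months. The 5 highest genes held 65.0% of the summed RPKM at PND2 and 68.7% at 4 months.

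All 8 classical pathway genes were higher at 4 months, each with a fold change over 2. Their log2 fold changes lay between 1.00 and 4.77. The smallest were those of the 3 chains of C1q, whose genes lie side by side on the minus strand of chromosome 4 and whose products assemble in equal numbers into the molecule that recognises targets. C1qa was at 76.2, 63.9 and 73.9 RPKM in the PND2 libraries and at 188, 143 and 192 RPKM in the 4 month libraries. C1qb was at 83.1, 62.7 and 84.0 RPKM at PND2 and at 175, 131 and 170 RPKM at 4 months. C1qc was at 44.6, 40.6 and 45.3 RPKM at PND2 and at 98.5, 70.7 and 94.5 RPKM at 4 months. In each chain every 4 month library lay above every PND2 library, and replicate 2 was the lowest at both ages. The log2 fold changes were 1.28 ± 0.14 (SE) for C1qa (limma, adjusted p = 0.00065), 1.05 ± 0.16 for C1qb (adjusted p = 0.00265) and 1.00 ± 0.14 for C1qc (adjusted p = 0.00184). With 1 library left out the log2 fold changes of C1qb and C1qc stayed called but went as low as 0.91, so that they were past a fold of 2 in some of these fits only.

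The chains kept similar proportions. The ratio of C1qa to C1qb was 0.918, 1.02 and 0.879 at PND2 and 1.07, 1.09 and 1.13 at 4 months. The 2 ages did not overlap in it, but the difference of 0.161 had an exact permutation p of 0.1 (2-sided), the smallest that 3 against 3 libraries allow. For C1qc to C1qb the ratio averaged 0.574 ± 0.0633 at PND2 and 0.553 ± 0.0125 at 4 months (SD, n = 3), and the exact permutation p was 0.9. The level of this ratio depends on the length used. C1qc was scaled to 1931 exonic bases, while its longest transcript holds 1203, and C1qb has 1088 by both measures.

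Upstream sequence was available from RefSeq (GRCm38.p6) for 25 of the 35 genes, and 250 bases before the start of C1qb and C1qc are shown because the chains rose together. The motif letters searched on both strands were GAGGAAGT (the PU.1 site, a factor of the myeloid lineage), TTGCNNAA (C/EBP), TTCNNNGAA (the GAS site of STAT factors), GAAANNGAA (ISRE), GGGANTTCC (NF-kB) and TATAAA (the core promoter box), and none of them may be read as a bound site. No matches overlap in the sequences shown. Capitals mark matches, which on the minus strand read as the reverse complement. C1qc holds the PU.1 letters 195 bases before its RefSeq start, and 2.44% of all 32851 promoters hold them somewhere in their 250 bases. The C1qc stretch overlaps the gene bounds used for the RPKM, chr4:136889804-136893065. C1qb holds none of the 6 motifs.
C1qb, chr4:136886201-136886450, minus strand: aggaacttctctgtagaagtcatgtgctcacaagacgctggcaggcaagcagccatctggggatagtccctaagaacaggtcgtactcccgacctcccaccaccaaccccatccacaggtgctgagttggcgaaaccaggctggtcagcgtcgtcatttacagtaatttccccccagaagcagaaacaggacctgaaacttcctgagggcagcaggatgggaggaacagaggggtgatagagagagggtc
C1qc, chr4:136892915-136893164, minus strand: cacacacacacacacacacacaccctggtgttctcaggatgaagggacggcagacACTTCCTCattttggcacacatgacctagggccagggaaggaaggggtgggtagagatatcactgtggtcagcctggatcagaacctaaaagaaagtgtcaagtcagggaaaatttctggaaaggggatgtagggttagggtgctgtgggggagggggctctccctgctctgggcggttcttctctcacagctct

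Macrophage marker genes moved in both directions. Of the 10 markers, 6 were higher at 4 months, 1 was lower and 3 were not called. Cd163, a scavenger receptor of tissue macrophages, was at 4.04, 1.70 and 1.61 RPKM at PND2 and at 14.1, 14 and 10.8 RPKM at 4 months. Csf1r, the receptor for macrophage colony stimulating factor, was at 28.6, 25.4 and 31.6 RPKM at PND2 and at 68.1, 55.0 and 55.2 RPKM at 4 months. The fractalkine receptor gene Cx3cr1 was lower, with 15.1, 11.7 and 14.1 RPKM at PND2 and 10.7, 8.53 and 7.04 RPKM at 4 months. The marker list summed to between 147 and 235 RPKM at PND2 and to between 233 and 277 RPKM at 4 months, so the ages overlapped, and no marker was at 0. The overlap came from Lyve1, which was at 119, 39.3 and 55.0 RPKM at PND2 and between 32.4 and 35.3 RPKM at 4 months, and which was not called. Without it, a step added after seeing the data, the other 9 markers summed to 107 to 125 RPKM at PND2 and to 200.0 to 241 RPKM at 4 months. The summed C1q chains divided by those 9 were 1.56 to 1.76 at PND2 and 1.68 to 2.28 at 4 months, so the ages overlapped, whereas divided by all 10 they were 0.868 to 1.14 and 1.45 to 1.95. The part of macrophage number in the C1q values was not tested.

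**Figure D2:**
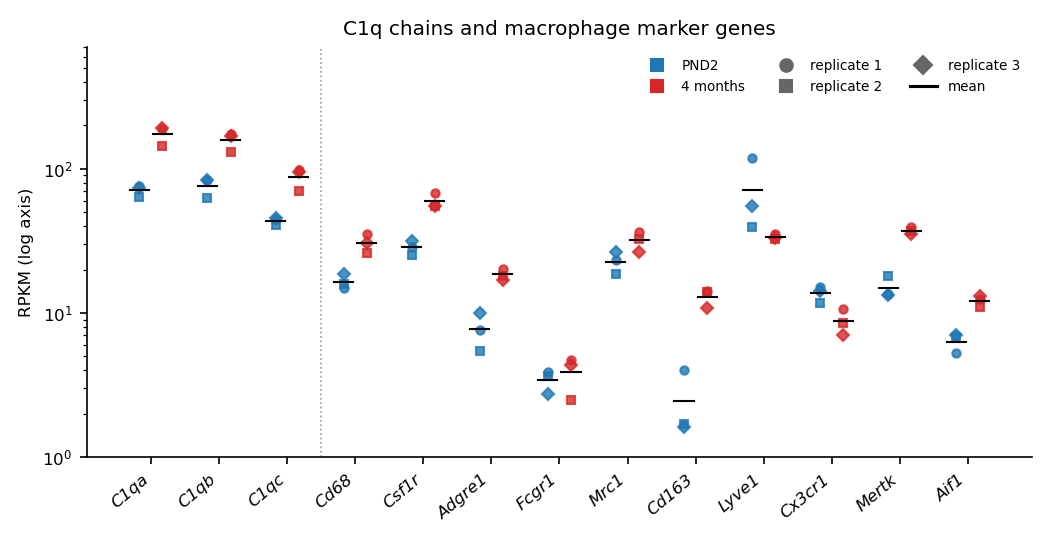
RPKM of the 3 C1q chains and of 10 macrophage marker genes on a log axis, with the PND2 libraries in blue and the 4 month libraries in red. Symbols mark the replicate and black lines the mean. The C1q chains, Csf1r, Cd163 and Mertk are higher at 4 months without overlap, and Cx3cr1 is lower.

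The C1r protease genes and both C4 genes had larger fold changes than the C1q chains. C1ra, one of the 2 mouse genes for the C1r protease, was at 24, 15.7 and 22.6 RPKM at PND2 and at 188, 145 and 149 RPKM at 4 months, a 7.74-fold difference of the means. C1rl, a protease gene related to C1r, was at 0.724, 1.11 and 0.920 RPKM at PND2 and at 5.74, 5.15 and 5.69 RPKM at 4 months. Both genes were separated by age without overlap, with log2 fold changes of 2.96 ± 0.18 (limma, adjusted p = 7.3e-05) and 2.48 ± 0.22 (adjusted p = 0.00029). They lie on chromosome 6, C1rl at chr6:124493113-124510643 and C1ra at chr6:124512405-124523443 (mm10). C1ra shares 52.0% of its 47 base stretches with its copy C1rb, whose RPKM differed by a log2 fold change of 2.93. Reads of the copies cannot be fully separated, and the ratio of C1ra to C1rb lay between 1.72 and 1.88 in all 6 libraries.

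C4b and C4a, the genes for the fourth component, had the largest differences of the classical pathway. C4b was at 5.26, 12.2 and 5.92 RPKM at PND2 and at 204, 163 and 241 RPKM at 4 months. C4a, known as the gene of the sex-limited isotype, is annotated here as a processed transcript and not as protein coding. It was at 1.74, 3.31 and 2.20 RPKM at PND2 and at 56.7, 46.5 and 65.8 RPKM at 4 months. The means differed 26.0-fold for C4b and 23.3-fold for C4a, and at PND2 replicate 2 was the highest library for both. The log2 fold changes were 4.77 ± 0.31 for C4b (limma, adjusted p = 9.3e-05) and 4.52 ± 0.24 for C4a (adjusted p = 4.5e-05). The transcripts share 37.1% of their 47 base stretches, and C4a kept to between 0.271 and 0.372 of the C4b level in the 6 libraries. How many of the reads given to C4a came from C4b was not tested. Of the annotated exons, all 49 of C4b had reads in every library, and for C4a 36 of 55 had reads in all 3 PND2 libraries and 51 in all 3 at 4 months.

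C2, the protease of the classical C3 convertase, lies in the same stretch of chromosome 17 as Cfb, C4a and C4b, within the class III region of the major histocompatibility complex. It was at 4.83, 4.38 and 3.82 RPKM at PND2 and at 13.8, 11.5 and 7.78 RPKM at 4 months, without overlap between the ages. The log2 fold change was 1.29 ± 0.23 (limma, adjusted p = 0.00464). C2 and Cfb share exons with Gm20547, an annotated gene that runs across both, and C2 also overlaps Zbtb12. Over the exons of C2 that overlap no other gene the RPKM was 1.81, 1.87 and 1.77 at PND2 and 6.71, 5.92 and 3.33 at 4 months, and the fit gave 1.44 ± 0.28 (adjusted p = 0.00684).

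**Figure D3:**
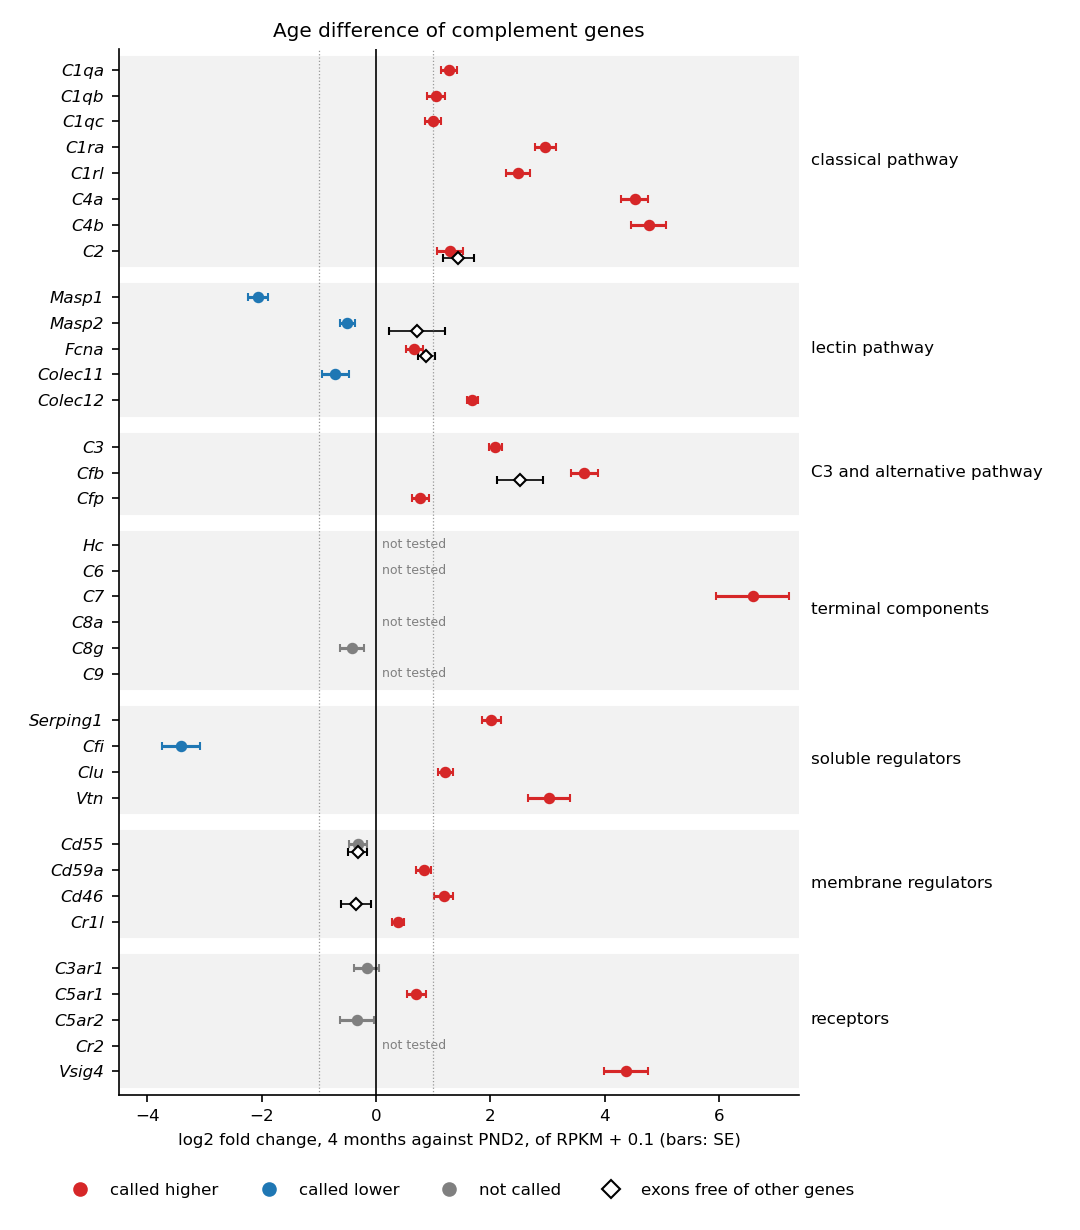
The log2 fold change of each complement gene at 4 months against PND2, on the scale of RPKM + 0.1, with bars for the standard error. Red points were called higher, blue lower and grey not called, dotted lines mark a fold of 2, and open diamonds give the fit over exons that overlap no exon of another gene. All 8 classical pathway points lie to the right of 0, and the diamonds of Masp2 and Cd46 lie on the other side of 0 from their points.

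The 5 lectin pathway genes moved in both directions. The gene values of Masp1 and Masp2 were called lower at 4 months, as was that of the collectin Colec11. Those of the ficolin Fcna and the scavenger receptor Colec12 were called higher. Nearly all Masp1 reads lay outside the last 6 exons of its longest transcript, and nearly all Masp2 reads lay on exons shared with Tardbp. Colec12, a membrane collectin of stromal and endothelial cells, was at 81.7, 72.7 and 76.2 RPKM at PND2 and at 259, 232 and 251 RPKM at 4 months. Its libraries lay close together within each age, and the log2 fold change was 1.69 ± 0.09 (limma, adjusted p = 4.6e-05). Fcna, the plasma ficolin of macrophages, lay between 4.15 and 4.51 RPKM at PND2 and between 6.06 and 7.58 RPKM at 4 months (log2 fold change 0.67 ± 0.15, adjusted p = 0.0125). Colec11, a soluble collectin, lay between 17.2 and 31.0 RPKM at PND2 and between 11.8 and 15.8 RPKM at 4 months. Its log2 fold change was -0.71 ± 0.23 with a limma adjusted p of 0.0474, close to the threshold. It was called without PND2 replicate 2 but not when any other library was left out, and without PND2 replicate 3 the log2 fold change was -0.46.

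Masp1 was the lectin pathway gene with the largest difference. It was at 24.3, 17.9 and 19.2 RPKM at PND2 and at 4.80, 5.71 and 3.99 RPKM at 4 months, without overlap (log2 fold change -2.06 ± 0.18, limma adjusted p = 0.00028). The gene encodes 2 proteases and a shorter regulator from alternative transcripts, and lies at chr16:23451785-23520590 on the minus strand in the files. Its reads were not spread evenly over the 16 exons of the file. Over exons 1 to 8 the RPKM was 55.3, 40.5 and 44.2 at PND2 and 10.7, 12.9 and 8.87 at 4 months. Exons 9 and 10 had 14.3, 9.38 and 8.82 RPKM at PND2 and 3.90, 2.96 and 3.57 RPKM at 4 months. The last 6 exons, which complete the longest transcript, had no more than 0.705 RPKM in any library. GENCODE M21, an annotation of the same genome, lists 2 further coding transcripts of Masp1, one sharing 10 exons with the file and one sharing 8, and each ends in an exon of its own. Those last exons, at chr16:23468363-23470730 and chr16:23479309-23480140, were not analysed here and are not part of the Masp1 values above.

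Masp2, the main lectin pathway protease, was called lower with a log2 fold change of -0.50 ± 0.13 (adjusted p = 0.0203 by limma), a call lost without PND2 replicate 2, PND2 replicate 3 or 4 month replicate 3. Nearly all of its reads lay on its last 2 annotated exons, which overlap Tardbp on the opposite strand and had 28.8, 33.0 and 33.3 RPKM at PND2 and 24.7, 22.7 and 19.5 RPKM at 4 months. The exons free of Tardbp held 1, 3 and 10 reads at PND2 and 9, 6 and 13 reads at 4 months. Over those the log2 fold change was 0.72 ± 0.49 and was not called (limma, adjusted p = 0.293), so the lower value at 4 months belongs to exons shared with Tardbp. The libraries were made with a stranded kit, but whether the counting used the strand is not given in the sources used here.

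**Figure D4:**
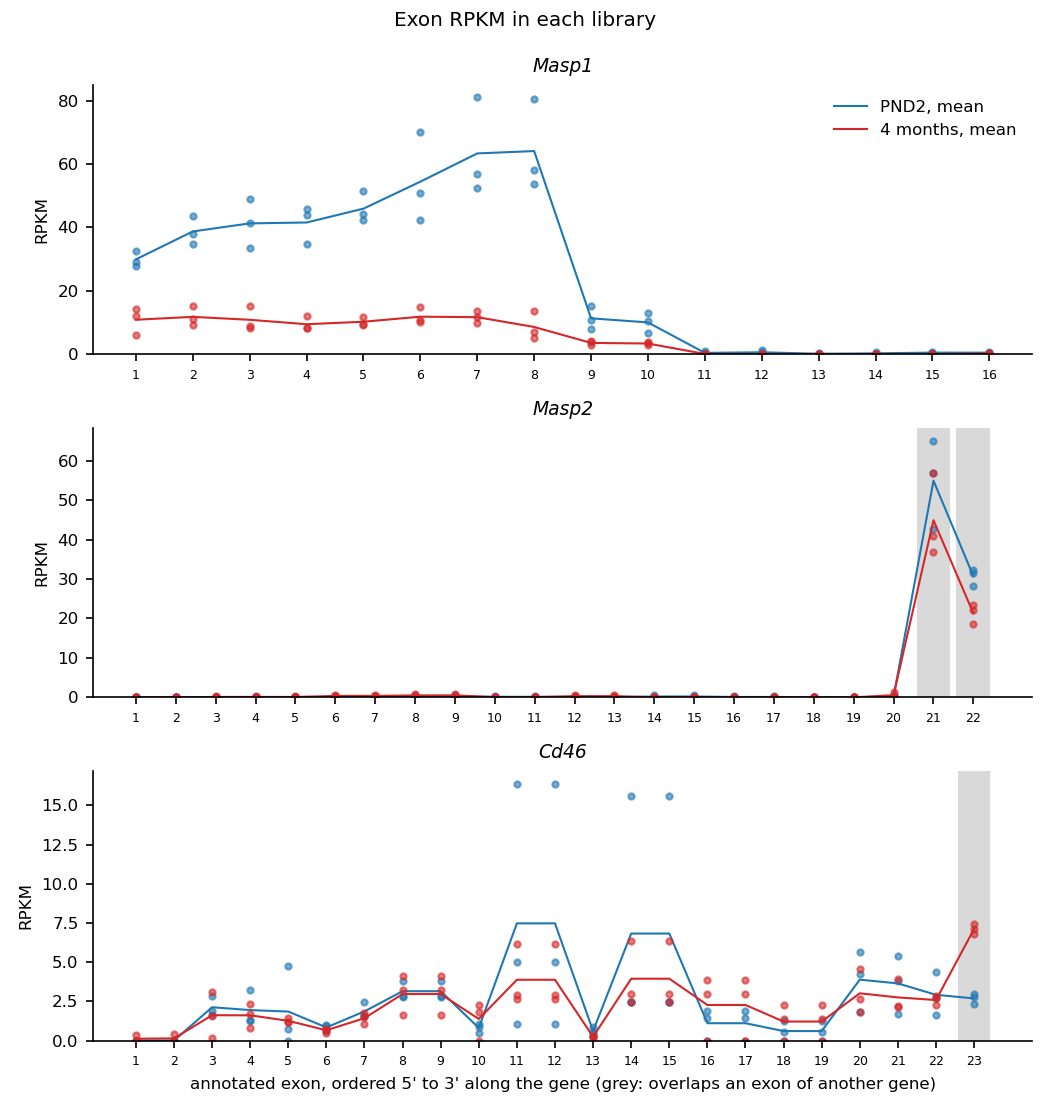
RPKM of each annotated exon of Masp1, Masp2 and Cd46 in order from the 5′ end, with a point for each library, lines for the mean of each age (PND2 blue, 4 months red) and grey bands for exons that overlap an exon of another gene. Masp1 has reads over exons 1 to 10 and almost none over the last 6, the reads of Masp2 lie on its last 2 exons, and the red points of Cd46 rise above the blue ones on its last exon.

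C3, on which all pathways converge, and both alternative pathway genes were higher at 4 months. C3 was at 95.8, 83.4 and 73.5 RPKM at PND2 and at 369, 356 and 341 RPKM at 4 months, a 4.21-fold difference of the means. The ages were far apart compared with the spread within them, and the log2 fold change was 2.08 ± 0.12 (limma, adjusted p = 5.1e-05). The 250 bases before its start hold the C/EBP letters 45 bases upstream, letters that 9.56% of all promoters hold.
C3, chr17:57228137-57228386, minus strand: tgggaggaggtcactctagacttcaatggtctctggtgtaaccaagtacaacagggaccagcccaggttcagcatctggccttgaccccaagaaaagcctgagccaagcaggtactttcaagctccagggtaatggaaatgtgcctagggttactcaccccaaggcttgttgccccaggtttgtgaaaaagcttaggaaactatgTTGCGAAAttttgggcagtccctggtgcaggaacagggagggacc

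Cfb, the protease of the alternative C3 convertase, also rose. It was at 2.44, 2.17 and 1.28 RPKM at PND2 and at 26.9, 22.2 and 25.7 RPKM at 4 months, with a log2 fold change of 3.64 ± 0.24 (adjusted p = 9.5e-05 by limma). The ratio of Cfb to C3 lay between 0.0175 and 0.0260 at PND2 and between 0.0624 and 0.0753 at 4 months. The part of Cfb free of Gm20547 is 467 bases long, and over it the log2 fold change was 2.52 ± 0.40 (adjusted p = 0.00307), from 12, 15 and 4 reads at PND2 and 76, 38 and 54 reads at 4 months. Cfp, or properdin, which stabilises the convertase, lay between 10.6 and 13.5 RPKM at PND2 and between 18.6 and 24.8 RPKM at 4 months (log2 fold change 0.77 ± 0.15, adjusted p = 0.00747).

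Among the 6 terminal components, which build the membrane attack complex, C7 alone was called. C7 was at 0.284, 0.314 and 0.101 RPKM at PND2, from 30, 26 and 8 reads, and at 75.9, 12.0 and 30.9 RPKM at 4 months. The 3 adult libraries differed widely among themselves, yet the lowest of them lay far above every PND2 library. The log2 fold change was 6.59 ± 0.64 (limma, adjusted p = 0.00042), the largest of the 30 genes tested, and lay between 5.93 and 7.26 when each library was left out in turn. All 18 exons of C7 had reads in every 4 month library, and 1 of them in every PND2 library. The order of the adult libraries in C7 was the reverse of their order in summed heart muscle markers (3955, 8567 and 5987 RPKM). The adipocyte, red blood cell, mast cell, B cell and T cell marker sums shared that heart muscle order. An order of 3 libraries cannot tell these cell types apart, and their part in C7 was not tested. Upstream of C7 the GAS letters start 164 bases and the core promoter box letters 6 bases before the start, found in 7.02% and 12.4% of all promoters.
C7, chr15:5063774-5064023, minus strand: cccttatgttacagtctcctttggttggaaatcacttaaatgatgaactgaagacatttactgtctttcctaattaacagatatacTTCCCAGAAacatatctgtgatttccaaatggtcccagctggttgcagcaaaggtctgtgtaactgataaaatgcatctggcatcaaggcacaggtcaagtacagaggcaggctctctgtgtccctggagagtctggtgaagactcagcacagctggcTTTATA

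Apart from C8g, the other terminal components were barely detected or not detected. C8a and C9, for the alpha chain of C8 and for the pore-forming C9, had 0 reads in all 6 libraries, where 3 reads in a library would be 0.0212 to 0.0347 RPKM for C8a and 0.0301 to 0.0493 RPKM for C9. Hc, which encodes C5, had 7 to 14 reads in each library and no more than 0.0737 RPKM. C6, the neighbour of C7 on chromosome 15, had 0, 0 and 5 reads at PND2 and 21, 8 and 8 reads at 4 months. These 4 genes were too low to be tested. C8g, for the gamma chain of C8, lay between 2.13 and 2.87 RPKM at PND2 and between 1.70 and 2.03 RPKM at 4 months, and was not called (log2 fold change -0.43 ± 0.21, limma adjusted p = 0.157). Its reads lay mostly on its first exon, at 10.2 to 17.1 RPKM against 0.454 to 0.897 RPKM over its other exons, and that exon lies within the bounds of Fbxw5 on the opposite strand.

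Of the 4 soluble regulators 3 rose and 1 fell, each by more than 2-fold. Serping1, the C1 inhibitor that removes C1r, C1s and the MASP proteases from their complexes, was at 148, 165 and 188 RPKM at PND2 and at 828, 565 and 644 RPKM at 4 months. It had the highest mean of the 35 genes at 4 months, and the ages were separated by a log2 fold change of 2.01 ± 0.16 (adjusted p = 0.00022 by limma). Clu, or clusterin, which blocks the assembly of the attack complex, was at 223, 237 and 233 RPKM at PND2 and at 532, 455 and 625 RPKM at 4 months. Its log2 fold change was 1.21 ± 0.13 (adjusted p = 0.00068). Vtn, or vitronectin, another inhibitor of the attack complex, was at 0.114, 0.194 and 0.404 RPKM at PND2 and at 2.41, 2.79 and 2.26 RPKM at 4 months. Its log2 fold change was 3.03 ± 0.37 (adjusted p = 0.00106), from 9 to 24 reads at PND2 and 133 to 183 reads at 4 months. For all 3 genes every adult library lay above every PND2 library.

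Cfi, the protease that inactivates C3b and C4b with the help of cofactors, went the other way. It was at 3.38, 3.19 and 3.36 RPKM at PND2 and at 0.386, 0.132 and 0.187 RPKM at 4 months, a 14.1-fold difference of the means. The PND2 libraries lay close together, and the adult libraries held 32, 7 and 12 reads. The log2 fold change was -3.42 ± 0.33 (limma, adjusted p = 0.00042). Reads fell on 16 of its 17 exons in all PND2 libraries and on 2 of 17 in all 4 month libraries. C3 stood 21.9 to 28.3 times above Cfi at PND2 and 955 to 2685 times at 4 months.

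The 4 membrane regulators protect the cell that carries them from complement. Cd59a, which blocks C9 insertion, lay between 34.3 and 48.3 RPKM at PND2 and between 69.9 and 76.1 RPKM at 4 months (log2 fold change 0.83 ± 0.13, limma adjusted p = 0.0032). Cr1l, the mouse regulator also called Crry, lay between 8.88 and 9.91 RPKM at PND2 and between 11.8 and 12.4 RPKM at 4 months (0.38 ± 0.11, adjusted p = 0.0314). Neither reached a fold of 2, and of the 6 fits that left out 1 library Cr1l was called only in that without PND2 replicate 1. Cd55, which speeds the decay of the convertases, was at 45.9, 31.0 and 45.6 RPKM at PND2 and at 31.7, 33.8 and 31.5 RPKM at 4 months and was not called (-0.31 ± 0.16, adjusted p = 0.173). Without PND2 replicate 2, the low library of that age, it was called lower at -0.50 (adjusted p = 0.0153).

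Cd46, a cofactor for Cfi that in mice is known chiefly from the testis, was at 2.25, 2.07 and 2.31 RPKM at PND2 and at 5.48, 4.86 and 5.10 RPKM at 4 months. It was called higher with a log2 fold change of 1.18 ± 0.16 (adjusted p = 0.00179 by limma). The difference lay on its last exon of 5188 bases, which overlaps A330023F24Rik, the host gene of Mir29b-2 and Mir29c, on the opposite strand and had 2.79, 2.33 and 2.95 RPKM at PND2 and 7.46, 6.80 and 7.11 RPKM at 4 months. Over the other exons the RPKM was 1.21, 1.53 and 1.17 at PND2 and 1.28, 0.826 and 0.919 at 4 months, so the ages overlapped. The fit over those exons gave a log2 fold change of -0.35 ± 0.27 and no call (adjusted p = 0.351).

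Of the 5 receptors, Vsig4 and C5ar1 were called higher. Vsig4, the receptor for C3b and iC3b on resident macrophages, was at 0.0691, 0.177 and 0.0230 RPKM at PND2, from 4, 8 and 1 reads, and at 4.85, 3.42 and 2.82 RPKM at 4 months, from 269, 121 and 121 reads. The gene was close to the limit of detection at PND2 and clearly present in every adult library (log2 fold change 4.37 ± 0.39, limma adjusted p = 0.00032). Vsig4 entered the test through its adult libraries alone, so the p-value is no independent support for the direction. C5ar1, the main receptor for the anaphylatoxin C5a, lay between 2.89 and 3.68 RPKM at PND2 and between 4.97 and 5.39 RPKM at 4 months (0.71 ± 0.17, adjusted p = 0.0158), and was not called without PND2 replicate 2 or 3. C3ar1, the C3a receptor, was at 5.27, 4.16 and 4.99 RPKM at PND2 and at 5.44, 4.16 and 3.40 RPKM at 4 months, so the ages overlapped and it was not called (-0.17 ± 0.21). C5ar2, the second C5a receptor, lay between 2.33 and 4.03 RPKM at PND2 and between 1.70 and 2.86 RPKM at 4 months and was not called (-0.33 ± 0.29). Nearly all its reads lay on its last exon, which overlaps Gm26473 and makes up 3390 of its 3561 exonic bases. Cr2, the receptor of B cells and follicular dendritic cells for C3d, had 13 to 28 reads in each library and was not tested, and the 4 B cell markers summed to no more than 4.11 RPKM.

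Neighbouring genes differed in the size of their age difference. On chromosome 17, C4b, C4a, Cfb and C2 were all called higher, by 26.0-, 23.3-, 12.7- and 2.54-fold of the means, and over exons free of other genes Cfb differed 5.87-fold and C2 2.93-fold. On chromosome 15, C7 was called higher, while C6 and C9 were at or near 0 at both ages and were not tested. On chromosome 1 the neighbours Cd46, Cr1l and Cr2 had ratios of the 4 month to the PND2 mean of 2.33, 1.31 and 1.25. Over its exons free of A330023F24Rik that of Cd46 was 0.774. Cd55, with a ratio of 0.792, is not their neighbour and lies at chr1:130439027-130462744.

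Among the 28 other complement genes listed for comparison, more were called higher than lower. Of these 18 were tested, 11 were higher at 4 months (61.1%, against 14.7% of all genes tested) and 5 were lower (27.8%, against 21.1%). Cfd and Colec10 were among 3 of the 18 that passed the filter through the libraries of 1 age only. Cfd, or factor D, the adipose protease that cleaves Cfb, had 0, 1 and 0 reads at PND2 and was at 217, 955 and 172 RPKM at 4 months, highest in the replicate with the highest adipocyte sum. Colec10, the partner chain of Colec11, was at 3.74, 4.85 and 4.60 RPKM at PND2 and at 0.134, 0.0549 and 0.0829 RPKM at 4 months. Itgax, the alpha chain of complement receptor type 4, rose from 0.198, 0.136 and 0.135 RPKM to 3.67, 2.38 and 2.69 RPKM (3.54 ± 0.29, adjusted p = 0.00022). C1s1, for the C1s protease, rose from 16.1, 15.0 and 18.6 RPKM to 167, 135 and 122 RPKM (3.07 ± 0.14, adjusted p = 3e-05), and its copy C1s2 rose by a log2 fold change of 2.94 ± 0.15. All 11 exons of C1s2 overlap a second entry of the same symbol. How far reads of C1s1 and C1s2 can be separated was not tested. C8b, Mbl1 and Fcnb, for the beta chain of C8, a mannose-binding lectin and a myeloid ficolin, had 0 reads in every library.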

How the data were processed

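The authors trimmed paired 50 nt reads, aligned them to mm10 with TopHat2 2.1.0 and counted them with easyRNASeq on Ensembl genes and exons, and deposited RPKM tables, one of genes and one of exons, without the study's read minimum. Each library total was inferred from the smallest product of exon RPKM and exon length above 0. Whole reads were recovered from each RPKM, its length and the library total, and all values above 0 came out whole within 0.001. Reads on genes summed to 2.31 to 2.36 times the library totals, and the cause was not tested. The recovered reads may therefore not be distinct sequenced reads, and the totals may not be the sequencing depth.

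Genes with at least 0.1 RPKM in 3 or more libraries were tested, 3 libraries against 3, by 2-sided tests in limma 3.58.1 on log2(RPKM + 0.1), where the prior variance followed mean expression. The fold change of a low gene is understated on this scale. The fit was tested on simulated data. Alternatives changed the pseudocount, filter, trend, test, scaling, floor, replicate block, libraries and exons counted. The genes called with a fold change over 2 and a mean of at least 1 RPKM at one age were described in full. Where a symbol had 2 entries the longer was used. The members, gene lists and tests were chosen with earlier results of these data known.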

Additional observations from a re-analysis of the deposited data

How the results depend on the processing

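The number of complement genes called was 22 to 25 when each library was left out in turn, against 26 with all of them, and 17 to 19 with a fold change over 2, against 19. Among all genes tested the calls without 1 library numbered 6301 to 8581, against 9273. With a fold change over 2 they numbered 3640 to 4062, against 4452. Of the 28 other complement genes, 15 or 16 were called without 1 library, against 16. The per-gene unequal-variance test that the study used called 14 of the complement genes (13 higher, 1 lower), and the other alternatives gave 23 to 26. Among all genes tested that test called 3408, and the other alternatives 7167 to 9696. With the replicate number as a replicate block 23 complement genes were called (Masp2, Colec11 and Cr1l lost their calls) and 19 with a fold change over 2. Deviations of libraries with the same number correlated at 0.044, -0.061 and -0.16, and those with different numbers at -0.18 to 0.23. With 3 libraries an age these values cannot decide whether the numbers pair the libraries. Over exons free of other genes the log2 fold changes of 2 called genes reversed. These were Masp2 at 0.72 and Cd46 at -0.35 in the fit, and 1.02 and -0.37 as the log2 of the ratio of mean RPKM. That log2 ratio moved to 2.55 for Cfb and to 0.90 for Fcna. Colec11 was not called with a pseudocount of 0.01, without the filter, without the trend, with either rescaling, or with the floor of 10 reads. Of 539 comparisons of a member's fold change with an alternative, 500 kept direction and call, 36 lost the call, 1 (Cd55 without PND2 replicate 2) gained it and 2 reversed. Differences in the C1q chain ratios lay between 0.131 and 0.201 for C1qa and between -0.0403 and 0.0149 for C1qc when each library was left out. Genes under about 10 reads a library, such as Vsig4 at PND2, are limited by depth.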
